A study of Mus musculus with 16 samples.

Results

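The ATR and Chk1 replication checkpoint was described through 10 genes chosen by name: Atr, Atrip, Chek1, Topbp1, claspin (Clspn in the array annotation), Timeless, Tipin, Rad17, Hus1 and Wee1. All probes annotated to these symbols were taken, which gave 20 probes for 9 of the 10 genes, of 16590 named genes on the array. Atr was not analysed here. Total RNA of 8 murine B cell lymphomas, 4 in each of the 2 groups compared, was hybridised to Illumina bead arrays. All 8 arose in C57B6 mice with the Eµ-Myc transgene, in which an immunoglobulin heavy chain enhancer drives the Myc oncogene in B lineage cells. In 4 of them, called the Wrn tumours here, both copies of Wrn, the gene of the Werner syndrome protein, were the Δhel allele, from which a stretch of the helicase domain is deleted. The other 4 are called the Eµ-Myc tumours. Each title also holds an E or an L, which the labels leave unexplained. The E tumours were Eµ-Myc 1, Eµ-Myc 3, Wrn 2 and Wrn 4, the L tumours were Eµ-Myc 2, Eµ-Myc 4, Wrn 1 and Wrn 3, and the letter was thus balanced over genotype. The labels give no age, and whether each tumour is from its own mouse is not stated, so the p-values refer to the spread between these samples, which may be technical in part.

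The checkpoint is a kinase cascade that reads single-stranded DNA at stalled or damaged replication forks. ATR is brought there by its partner ATRIP, which binds the RPA coat on the DNA, and is switched on by TOPBP1, which is positioned by a ring-shaped clamp of RAD9, RAD1 and HUS1 that RAD17 loads. Claspin, with the fork protection pair TIMELESS and TIPIN, carries the signal to CHK1 (Chek1), which together with WEE1 restrains the cyclin-dependent kinases, late origin firing and entry into mitosis. Myc-driven lymphoma cells replicate under stress and are known to depend on this pathway, and the WRN helicase acts at stalled forks.

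The promoters of claspin and Chek1 are shown because these genes had the largest measured genotype differences among the members, and because E2F, CHR and CCAAT words are known from promoters of cell cycle genes. The sequences are RefSeq sequences of build GRCm38.p6, 250 bases before to 50 bases after the start, written 5′ to 3′ on the gene's strand. Claspin lies at chr4:126556730-126557029 on the plus strand and Chek1 at chr9:36726609-36726908 on the minus strand. Capitals mark matches to the words searched.
Clspn: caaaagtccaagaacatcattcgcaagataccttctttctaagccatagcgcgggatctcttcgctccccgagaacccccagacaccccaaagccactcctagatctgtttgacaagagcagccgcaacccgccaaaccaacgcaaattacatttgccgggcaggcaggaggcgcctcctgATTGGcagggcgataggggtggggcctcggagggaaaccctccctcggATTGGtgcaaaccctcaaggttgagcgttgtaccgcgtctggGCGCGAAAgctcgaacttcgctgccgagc
Chek1: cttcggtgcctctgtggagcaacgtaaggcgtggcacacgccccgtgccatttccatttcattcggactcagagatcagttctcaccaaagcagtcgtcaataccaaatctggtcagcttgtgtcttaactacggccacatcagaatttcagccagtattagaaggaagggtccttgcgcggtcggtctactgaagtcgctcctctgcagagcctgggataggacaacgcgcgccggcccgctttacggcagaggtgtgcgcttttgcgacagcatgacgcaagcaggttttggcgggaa
The words were searched on both strands: E2F (TTTCCCGC, TTTCGCGC, TTTGCCGC or TTTGGCGC), E-box (CACGTG), CHR (TTTGAA) and CCAAT, and no matches in the members' promoters overlapped. In the claspin promoter the capitals are 2 CCAAT words, read on the opposite strand, whose first bases lie at positions -69 and -21 from the start, and 1 E2F word at position 22, also on the opposite strand. The Chek1 window held none of these words. Only exact matches were counted: TTTGGCGG near its end, which differs from the E2F word TTTGGCGC in the last base, was not. The Chek1 window also stops 1 base short of a possible match to the E2F word TTTCCCGC, read on the opposite strand. The base that would decide it lies outside the window, so whether Chek1 has that word there was not tested. Of the 8 members with an entry, all but Tipin and Wee1, the E2F word stood in 2 (Clspn and Topbp1), against 2.26% of 32851 promoters. CCAAT stood in 2 (Clspn and Atrip), against 37.4%, the CHR word in 1 (Hus1), against 17.9%, and the E-box in 0, against 7.15%. Among 8108 promoters of tested genes, the shares were 4.02% for E2F, 38.5% for CCAAT, 11.9% for CHR and 10.1% for the E-box. Of the 8 members with an entry, Atr and Topbp1 were not tested genes, so the member counts and these shares cover unlike sets. These are matches of letters and do not show that a factor binds. By the GRCm38.p6 gene annotation, 5 of the 10 members (Atr, Atrip, Chek1, Topbp1 and Tipin) lie on chromosome 9.

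Of the 20 probes, 15 were tested, which required detection above the negative controls (p under 0.01) in 4 or more tumours; they cover Atrip, Rad17, Hus1, Clspn, Timeless, Tipin and Chek1. Of those 15, 13 were detected on all 8 arrays, Clspn probe 4 on 7 and Timeless probe 2 on 6. Probes of one gene are numbered from the brightest. The single Topbp1 probe (raw signal 41.0 to 51.9) and the single Wee1 probe (40.6 to 45.3) were detected on 0 arrays, as were Chek1 probe 3, Tipin probe 3 and Rad17 probe 2. No difference was detectable for Topbp1 or Wee1 with these probes, which does not show that the genes are silent.

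Across the series, median raw signal lay between 49.9 and 52.8 per array, and 10607 to 11369 of 25697 probes were detected on each. The number of arrays limits the precision. One Wrn probe was tested, and Eµ-Myc tumours 1 to 4 had log2 signals of 8.06, 8.45, 8.21 and 7.56 for it, against 7.03, 7.48, 7.33 and 7.46 for Wrn tumours 1 to 4. The groups did not overlap, the difference of -0.75 had a limma adjusted p of 0.973, and it is not known here whether the probe matches the deleted stretch. The 6 tested B cell markers, Cd79a and Cd79b among them, were detected on all arrays, and Pax5 was too dim to test.

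The comparison of genotypes asked whether checkpoint genes stood at another level in tumours with the Wrn deletion. None of the 15 member probes passed the test (limma with Benjamini-Hochberg adjustment over 11024 probes, adjusted p of 0.973 to 0.99); over all probes 4 passed, or 0.0363%. At an unadjusted p under 0.05 there were 0 of 15 member probes, against 3.76% of all probes, and the genotypes did not overlap for 0 of 15, against 2.21%. The measured difference, Wrn minus Eµ-Myc, was above 0 for 11 probes and below 0 for 4, beside 51% above 0 over all tested probes. Its median was 0.12 on the log2 scale, where the median of all tested probes was 0.007. The 15 probes stand for 7 genes and probes of one gene are not independent, so these counts do not show a shift of the pathway. Single differences ran from -0.13 to 0.41. The 95% intervals had a median half-width of 0.43 and together spanned -0.62 to 0.93, so a difference of the size of that half-width could not be told from 0. In bulk tumours, fewer cells of a type and less RNA per cell cannot be told apart.

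**Figure D1:**
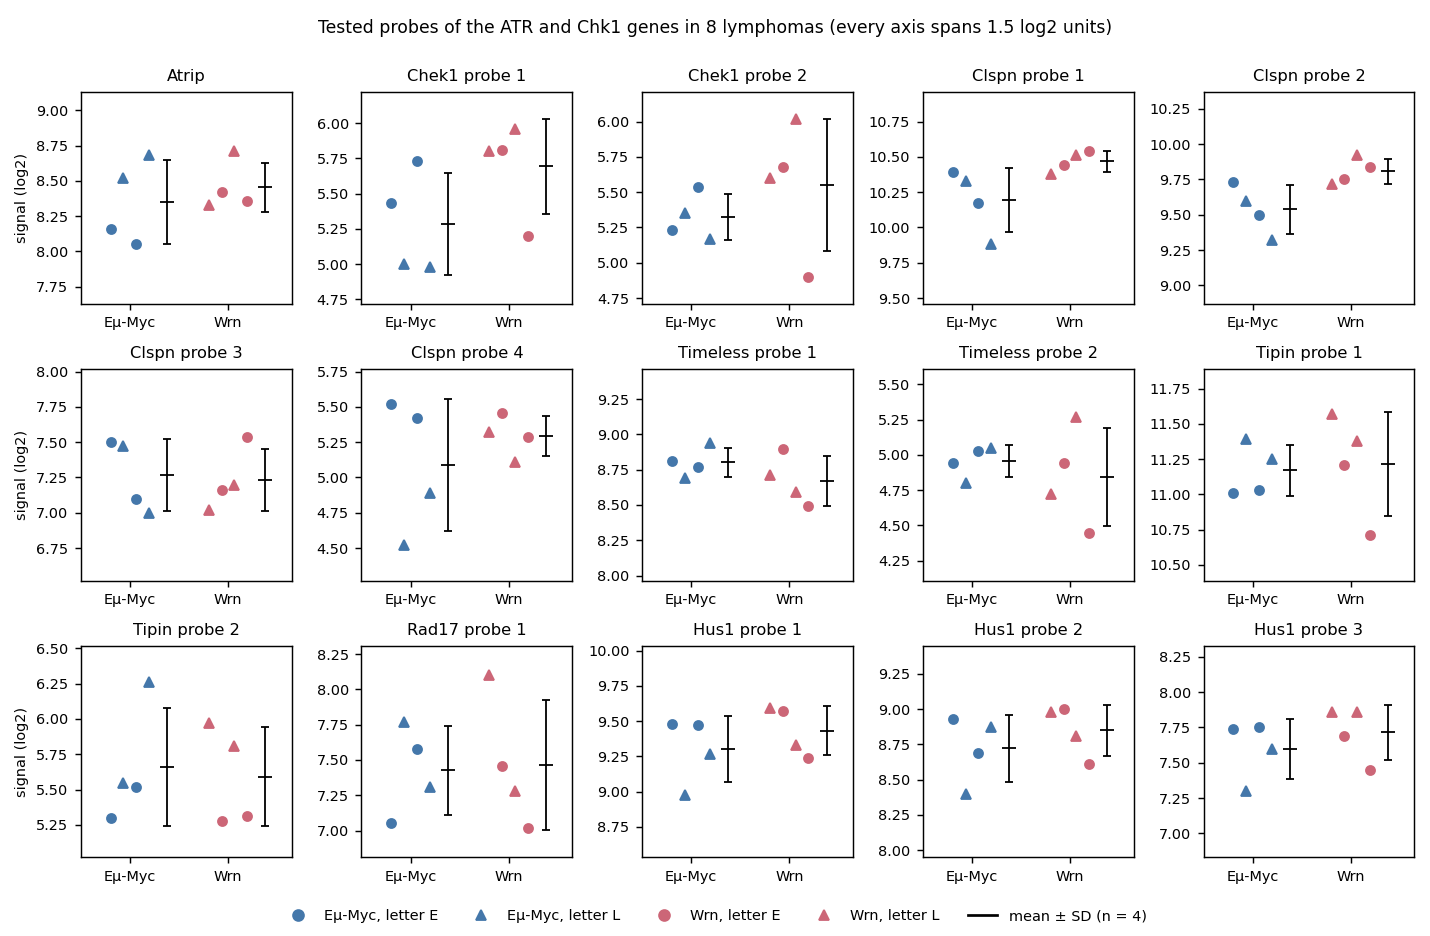
Signal (log2, vertical axes, each spanning 1.5 units) of the 15 tested member probes, 1 point per tumour, with blue for Eµ-Myc, red for Wrn, circles for letter E and triangles for letter L; bars are mean ± SD of 4 tumours. The genotypes overlap in every panel; for Clspn probes 1 and 2 they do so only through Wrn tumour 1 and Eµ-Myc tumour 1.

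Among the genes that sense the damaged fork, Atrip, the ATR partner, had signals of 8.16, 8.52, 8.05 and 8.68 in Eµ-Myc tumours 1 to 4 and 8.33, 8.42, 8.71 and 8.36 in Wrn tumours 1 to 4. Its genotype difference was 0.10 ± 0.19 (SE, n = 4 per genotype, 95% interval -0.33 to 0.53), with the Wrn tumours inside the Eµ-Myc range but for Wrn tumour 3. Leaving out 1 tumour at a time, it ran from 0.00 without Eµ-Myc tumour 3 to 0.21 without Eµ-Myc tumour 4. The clamp loader gene Rad17 had signals of 7.05, 7.77, 7.58 and 7.31 in Eµ-Myc tumours 1 to 4 and 8.10, 7.46, 7.28 and 7.02 in Wrn tumours 1 to 4. Both the highest and the lowest Rad17 signal belonged to Wrn tumours, and the difference was 0.04 ± 0.25 (95% interval -0.53 to 0.60). Hus1, a subunit of the clamp, was measured by 3 probes with differences of 0.13 ± 0.18, 0.12 and 0.12. Hus1 probe 1 had signals of 9.48, 8.98, 9.47 and 9.27 in Eµ-Myc tumours 1 to 4 and 9.59, 9.57, 9.33 and 9.24 in Wrn tumours 1 to 4. All 3 Hus1 probes were lowest in Eµ-Myc tumour 2, and without it their differences were 0.03, 0.02 and 0.02.

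Claspin, the mediator that holds CHK1 to ATR, gave 2 probes on which the genotypes overlapped through a single Wrn tumour. Clspn probe 1 had signals of 10.39, 10.33, 10.17 and 9.88 in Eµ-Myc tumours 1 to 4 and 10.38, 10.44, 10.51 and 10.54 in Wrn tumours 1 to 4. The Wrn tumours lay close together and overlapped the Eµ-Myc tumours only through Wrn tumour 1, just under Eµ-Myc tumour 1. Mean signal was 10.47 ± 0.07 in Wrn and 10.19 ± 0.23 in Eµ-Myc tumours (SD, n = 4), and the difference was 0.28 ± 0.17 (SE, 95% interval -0.10 to 0.66; exact two-sided permutation p = 0.0571, where the smallest that 4 against 4 allows is 0.0286; limma adjusted p = 0.973). In the deposited lumi intensities the same probe averaged 1403 ± 72 in Wrn and 1165 ± 178 in Eµ-Myc tumours. Clspn probe 2 read 9.73, 9.60, 9.50 and 9.32 in Eµ-Myc tumours 1 to 4 and 9.72, 9.75, 9.92 and 9.84 in Wrn tumours 1 to 4. Its order was nearly that of probe 1, with a difference of 0.27 ± 0.16 (95% interval -0.09 to 0.63; exact permutation p = 0.0571). The dimmer claspin probes did not all go that way: Clspn probe 3 differed by -0.04 ± 0.19 and Clspn probe 4 by 0.21 ± 0.23. For probe 4 the difference was 0.02 without Eµ-Myc tumour 2, 0.35 without Eµ-Myc tumour 1 and 0.50 in the lumi values. Eµ-Myc tumour 4 was lowest for probes 1, 2 and 3, and without it the difference was 0.17 for probe 1 and 0.20 for probe 2.

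The fork protection genes had small genotype differences of either sign. Timeless probe 1 read 8.81, 8.69, 8.77 and 8.94 in Eµ-Myc tumours 1 to 4 and 8.71, 8.90, 8.59 and 8.49 in Wrn tumours 1 to 4. It was among the steadiest probes measured, with an SD of 0.15 over the 8 tumours, smaller than for all but 3.76% of tested probes, and differed by -0.13 ± 0.16 (SE, 95% interval -0.49 to 0.23). Timeless probe 2 differed by -0.11 ± 0.20. Tipin, the TIMELESS partner, differed by 0.05 ± 0.21 for probe 1 (95% interval -0.42 to 0.51; the sign turned under median scaling, to -0.01) and by -0.07 ± 0.25 for probe 2 (-0.62 to 0.49).

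Chek1, the effector kinase, had the largest measured genotype difference among the members, at low signal. Chek1 probe 1 read 5.43, 5.0, 5.73 and 4.98 in Eµ-Myc tumours 1 to 4 and 5.80, 5.81, 5.96 and 5.20 in Wrn tumours 1 to 4. Wrn tumours 1, 2 and 3 stood above every Eµ-Myc tumour, and Wrn tumour 4 stood below 2 of them. Mean signal was 5.69 ± 0.34 in Wrn and 5.28 ± 0.36 in Eµ-Myc tumours (SD, n = 4), and the difference was 0.41 ± 0.24 (SE, 1.33-fold, 95% interval -0.11 to 0.93; exact permutation p = 0.143; limma adjusted p = 0.973). Chek1 probe 2 read 5.23, 5.35, 5.54 and 5.17 in Eµ-Myc tumours 1 to 4 and 5.60, 5.68, 6.02 and 4.90 in Wrn tumours 1 to 4, with the lowest and the highest value both in Wrn tumours. It differed by 0.23 ± 0.24 (95% interval -0.30 to 0.75; exact permutation p = 0.371), by 0.07 without Wrn tumour 3 and by 0.44 without Wrn tumour 4. Lumi intensities were 37 ± 11 against 24 ± 10 for probe 1 and 33 ± 14 against 24 ± 5 for probe 2, Wrn against Eµ-Myc. The neqc scale adds an offset before the log and understates fold changes at such low signal; in the lumi values the log2 difference of probe 1 was 0.65 and that of probe 2 was 0.31.

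**Figure D2:**
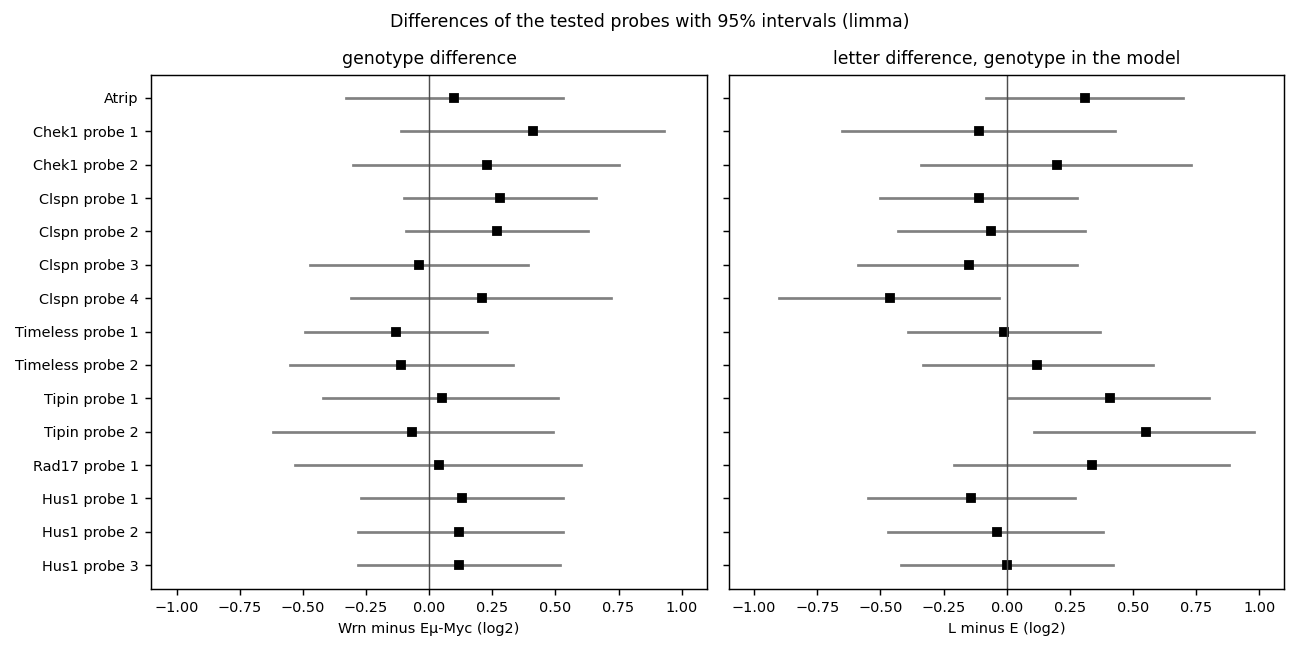
Differences of the 15 tested probes on the log2 scale (horizontal axes) with 95% limma intervals, for Wrn minus Eµ-Myc on the left and L minus E, with genotype in the model, on the right. Every genotype interval crosses 0; the letter intervals of both Tipin probes lie above 0 and that of Clspn probe 4 below 0, none of them past the test after adjustment.

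The letter in the titles was compared with genotype in the model. None of the 15 member probes passed (limma adjusted p of 0.604 to 0.997; over all probes 2 passed, or 0.0181%). At an unadjusted p under 0.05 there were 3 member probes, against 7.44% of all probes, and 2 of the 15 had E and L tumours that did not overlap, against 5.01% of all probes. Differences were above 0 for 6 probes and below 0 for 9, beside 51.7% above 0 over all tested probes. Their median was -0.01, beside 0.011 over all tested probes. Both non-overlapping probes were those of Tipin. The non-overlap count and the exact tests between letters were added after the values were seen.

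Tipin probe 1 read 11.01, 11.03, 11.21 and 10.71 in the E tumours (Eµ-Myc 1 and 3, Wrn 2 and 4) and 11.39, 11.25, 11.57 and 11.38 in the L tumours (Eµ-Myc 2 and 4, Wrn 1 and 3). The nearest values were those of Wrn tumour 2 and Eµ-Myc tumour 4. The means were 11.40 ± 0.13 for L and 10.99 ± 0.21 for E (SD, n = 4), a difference of 0.41 ± 0.18 (SE, 1.33-fold, 95% interval 0.01 to 0.80; limma adjusted p = 0.66; exact permutation p = 0.0556, the smallest that the 36 arrangements within genotypes allow). Tipin probe 2 read 5.30, 5.52, 5.28 and 5.31 in the same E tumours and 5.55, 6.26, 5.97 and 5.81 in the same L tumours. Its difference was 0.55 ± 0.19 (1.46-fold, 95% interval 0.11 to 0.98; limma adjusted p = 0.604; exact permutation p = 0.0556). Within each genotype the sign was the same: 0.52 in Wrn and 0.30 in Eµ-Myc tumours for probe 1, and 0.60 and 0.49 for probe 2. Lumi intensities of probe 1 were 2690 ± 244 in L and 2035 ± 283 in E tumours, and of probe 2 were 45 ± 13 and 25 ± 3.

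The other members differed less between letters, with 1 exception. Clspn probe 4 had a difference of -0.46 ± 0.19 (95% interval -0.90 to -0.03; limma adjusted p = 0.653; exact permutation p = 0.111), while the brighter claspin probes differed by -0.11, -0.06 and -0.15. Its size moved with the processing, to -0.93 in the lumi values and -0.23 with a normexp offset of 50. Eµ-Myc tumour 2, an L tumour, was the lowest for that probe at 4.52. Rad17 differed by 0.34 ± 0.24 (-0.21 to 0.88) and Atrip by 0.31 ± 0.17 (-0.08 to 0.70). The Chek1 probes went opposite ways, at -0.11 and 0.20.

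**Figure D3:**
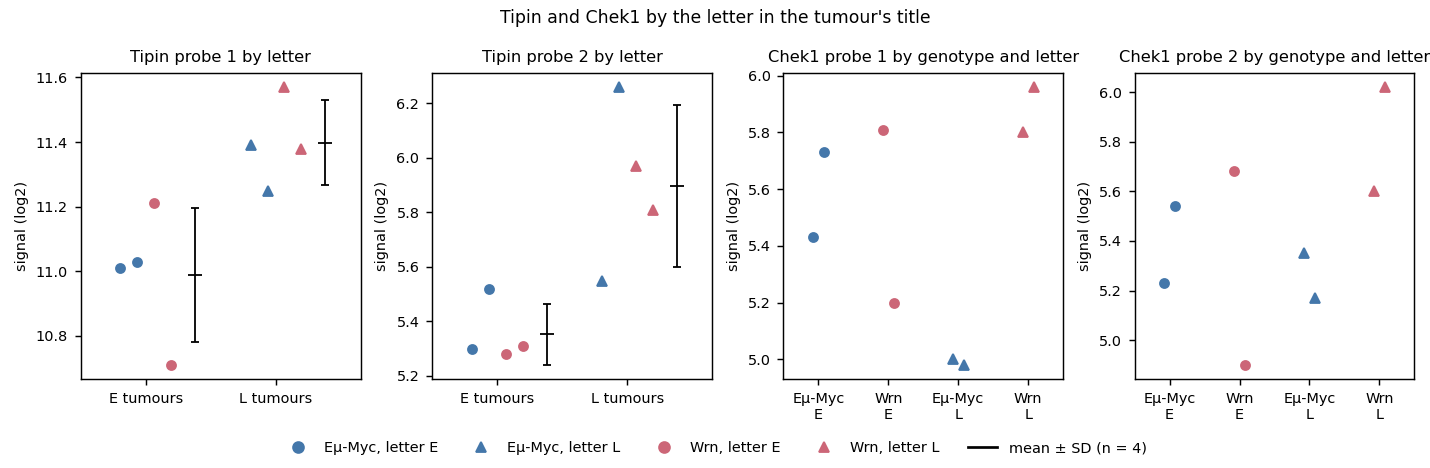
Signal (log2, vertical axes) of both Tipin probes by letter, with mean ± SD of 4 tumours, and of both Chek1 probes by genotype and letter, 1 point per tumour. All L tumours lie above all E tumours for Tipin; for Chek1 probe 1 the L tumours split by genotype, 5.0 and 4.98 in Eµ-Myc against 5.80 and 5.96 in Wrn.

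Whether the genotype difference itself differed between letters was tested as an interaction. It passed for 0 of 15 member probes and for 0 of 11024 probes (0%, limma adjusted p), and 1 member probe had an unadjusted p under 0.05, against 5.03% of all probes. That probe was Chek1 probe 1, where the genotype difference was 0.89 in L tumours and -0.07 in E tumours, an interaction of 0.96 ± 0.39 (SE, 95% interval 0.06 to 1.86; limma adjusted p = 0.937). Chek1 probe 2 had 0.55 and -0.10, an interaction of 0.64 ± 0.45 (-0.39 to 1.68). Each combination of genotype and letter holds 2 tumours, and the contrast cannot be told apart from one between odd and even replicate numbers.

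Different probes of a gene were then set against each other over the 8 tumours, as a description of how alike they varied. This comparison was added after the values were seen. A small spread between tumours or a signal near background can lower r by itself, so a low r does not show that the probes disagree. The 12 pairs had a median Pearson r of 0.58, where the 3665 such pairs of all genes had a median of 0.80. Clspn probes 1 and 2 went together (r = 0.97, Spearman rho 0.98, exact permutation adjusted p = 0.00208 for r; r = 0.92 without the 2 tumours farthest from the median), as did Chek1 probes 1 and 2 (r = 0.82, rho 0.88, adjusted p = 0.0406, exact permutation; r = 0.98 without 2 tumours). Hus1 probe 1 had r = 0.87 with probe 2 and r = 0.83 with probe 3 (exact permutation adjusted p = 0.0391 and 0.0405). Spearman rho was 0.88 and 0.67 for these (exact permutation adjusted p = 0.029 and 0.166), so the second did not pass by rank. The r values became 0.61 and 0.50 without Eµ-Myc tumour 2 and Wrn tumour 1. Hus1 probes 2 and 3 had r = 0.78 (rho 0.45, exact permutation adjusted p = 0.0509 for r), and -0.06 without Eµ-Myc tumour 2 and Wrn tumour 4. Leaving out the tumours farthest from the median narrows the range and can lower r by itself. Tipin probes 1 and 2 had r = 0.61 (adjusted p = 0.225, exact permutation), and -0.12 once genotype and letter were taken out. Timeless probes had r = 0.42 and Clspn probes 3 and 4 r = -0.08.

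**Figure D4:**
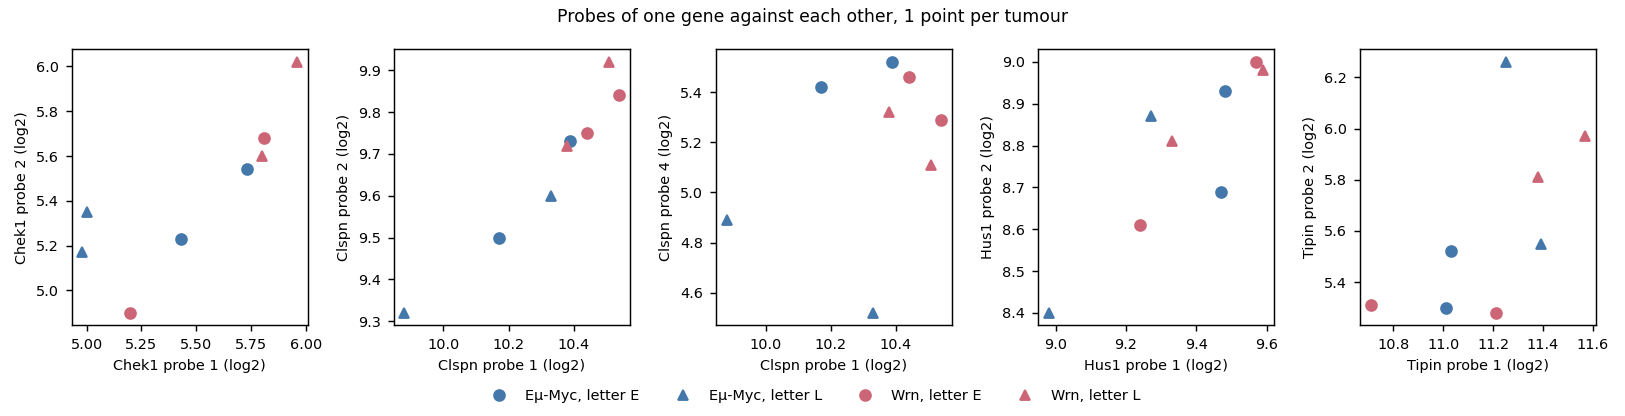
Signal (log2) of one probe of a gene against another probe of the same gene, 1 point per tumour, for Chek1, Clspn, Hus1 and Tipin. Clspn probes 1 and 2 fall near a line (r = 0.97), while Clspn probe 4 shows no such order against probe 1 (r = 0.31).

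Pairs of member genes were compared through the brightest tested probe of each, over 8 tumours. The 21 pairs had a median r of 0.10, beside 0.00 over all gene pairs, and ran from -0.67 to 0.76. None passed adjustment over the 21 (lowest exact permutation adjusted p = 0.373). An unadjusted p under 0.05 was reached by 2 of the 21. The share of all gene pairs below that level was not computed, so this count has no background to be read against. Tipin and Rad17 had r = 0.76 (rho 0.76), which fell to 0.37 without Wrn tumours 1 and 4. Chek1 and Hus1 had r = 0.74 (rho 0.64), and 0.48 without Eµ-Myc tumours 2 and 4. Both values of r were lower without the 2 tumours farthest from the median, a step that narrows the range and can lower r by itself. The partners TIMELESS and TIPIN, which form one complex, had r = 0.24, which became -0.57 without Eµ-Myc tumour 4 and Wrn tumour 4 and 0.60 with genotype and letter taken out. Chek1 and Clspn had r = 0.45, and -0.22 without Eµ-Myc tumours 2 and 4. Clspn and Timeless had the lowest r, -0.67. Each genotype and each letter holds 4 tumours, too few for a correlation of its own.

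**Figure D5:**
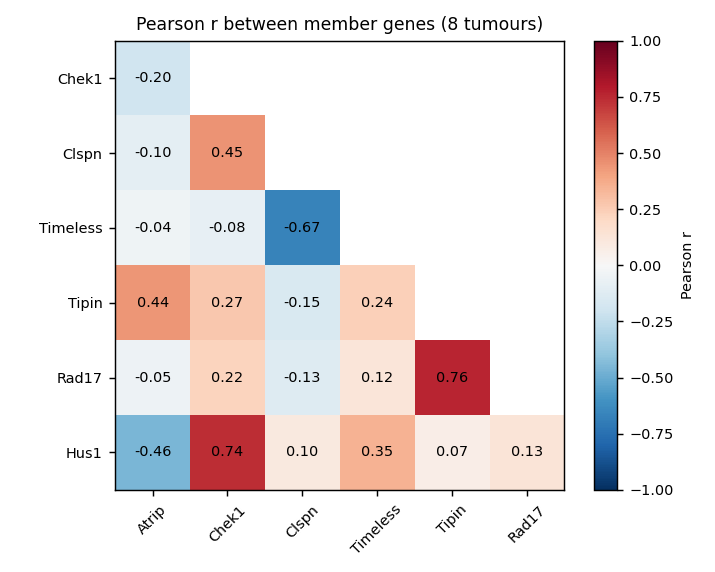
Pearson r over 8 tumours between the brightest tested probes of the 7 measured member genes, as colour and number. Values run from -0.67 (Clspn and Timeless) to 0.76 (Tipin and Rad17), with a median of 0.10.

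The rest of the pathway was read from 5 lists of 55 genes, of which 45 were tested. None passed in either comparison; between genotypes 28 of 45 were higher in Wrn tumours, with a median of 0.04, and between letters 25 of 45 were higher in L, with a median of 0.05. Over all tested probes 51% and 51.7% were higher. At an unadjusted p under 0.05 there were 1 and 2 of the 45 genes, beside 3.76% and 7.44% of all probes. In the clamp and sensor list (genes of RPA, RFC and the 9-1-1 clamp, their paralogs, Etaa1 and Rhno1) 6 of 10 were higher in Wrn tumours, with a median of 0.02. The clamp subunit gene Rad1 differed by 0.26 ± 0.21 and Rad9b, a paralog of the clamp subunit gene Rad9a, by -0.38 ± 0.34. Among genes of Cdk control, on which CHK1 and WEE1 act, 6 of 10 were higher, with a median of 0.13. Cdc7, the kinase that fires origins, differed by 0.54 ± 0.23 (limma adjusted p = 0.973), Pkmyt1, a relative of WEE1, by 0.40 ± 0.21, and Cdk2 by 0.38 ± 0.21. Of the genes of CHK1 and claspin turnover 5 of 9 were higher, with a median of 0.04. Ppm1d, a phosphatase that dephosphorylates CHK1, differed by 0.29 ± 0.19, Ddb1, an adaptor of cullin ligases, by -0.20 ± 0.18, and Fbxo6, of a ligase that degrades CHK1, by -0.32 ± 0.31.

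All 5 tested genes of fork remodelling were higher in Wrn tumours, with a median of 0.11 and none past the test. Zranb3, an annealing helicase, differed by 0.45 ± 0.21 and Wdhd1, a replisome adaptor, by 0.34 ± 0.19. Of the proliferation genes 6 of 11 were higher, with a median of 0.03; Top2a differed by 0.45 ± 0.23 and the replicative helicase subunit gene Mcm6 by 0.35 ± 0.23. Between letters, Usp20, a deubiquitinase of claspin, differed by -0.49 ± 0.21 and Pcna, the replication clamp, by 0.49 ± 0.21 (limma adjusted p = 0.659 for both). The Pcna probe was dim, with means of 5.62 in L and 5.13 in E tumours, near the level of the Chek1 probes. Plk1, the mitotic kinase that marks claspin for destruction, differed by -0.35 ± 0.17 and Aurka by -0.33 ± 0.18. In the other lists the lowest p between letters belonged to Rfc4, a clamp loader subunit gene (0.33 ± 0.19), Cdc25a, a phosphatase that CHK1 inhibits (0.24 ± 0.18), and Mcm10 (-0.25 ± 0.19).

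Markers of other cell types were read beside these values. Between genotypes, all 7 tested macrophage genes were lower in Wrn tumours, with a median of -0.52 and summed linear signals of 5329 to 9572 in Wrn and 7704 to 11830 in Eµ-Myc tumours. All 6 B cell genes were higher, with a median of 0.35 (sums 9237 to 16225 in Wrn and 8376 to 10948 in Eµ-Myc tumours). The 3 erythroid genes were lower, with a median of -0.77 (sums 1521 to 16129 and 5298 to 25922), as were 5 of 6 granulocyte genes, with a median of -0.35 (186 to 660 and 188 to 2620), and the 3 T cell genes, with a median of -0.47 (124 to 304 and 137 to 604). Cd3e, Cd4 and Cd8a were too dim to test. Stroma and endothelium had a median of 0.04, 4 of 6 higher (1229 to 2588 and 1129 to 1793). An unadjusted limma p under 0.05 was reached by 3 of 7 macrophage and 1 of 6 B cell genes, beside 3.76% of all probes. The other cell type lists had 0.

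Between letters, the granulocyte sums were 186 to 430 in L and 551 to 2620 in E tumours. All 6 tested granulocyte genes were lower in L, with a median of -1.38, but only S100a8 was detected in all tumours (difference -2.02 ± 0.57), and Mpo was detected in 4 E and 0 L tumours. A gene detected mainly in E tumours could enter the test through them alone, which partly fixes its direction. All 6 genes of stroma and endothelium were lower in L, with a median of -0.66 (1129 to 1793 in L and 1578 to 2588 in E), and 3 of them were detected in all tumours, Col1a1 (-2.0 ± 0.35) among them. The letter medians were -0.01 for macrophage genes, 3 of 7 higher, -0.05 for B cell genes, 1 of 6 higher, 0.49 for T cell genes, 2 of 3 higher, and 0.85 for erythroid genes, 3 of 3 higher. At an unadjusted limma p under 0.05 between letters there were 4 of 6 granulocyte and 3 of 6 stroma and endothelium genes, beside 7.44% of all probes. The limit on genes detected mainly in E tumours applies to those counts, and the other cell type lists had 0. None of these markers passed the test over all probes, and their part in the Tipin, Clspn and Chek1 values was not tested.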

How the data were processed

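Each of 8 tumours appears under 2 processings in the titles, Illumina GUI and Bioconductor lumi, and was counted once. Per the file headers, the deposited non-normalized table holds average bead intensity and a detection p-value per probe and array. The deposited lumi values are linear intensity after background subtraction, with 26.3% to 26.4% below 0, and the deposited GUI values are a score whose square root equals log2 of lumi within 0.0102 for lumi above 1000. No source used here gives the settings of either.

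The non-normalized table names probes differently, so its 25697 probes were joined to the processed tables by their ranks on the 8 arrays, one to one and identically through both tables. The worst ratio of best to second-best distance was 0.143, and 99.99% of joins were unchanged with 4 arrays. Symbols came from the platform annotation, updated to the GRCm38.p6 gene table: 23978 probes had 1 symbol, 0 had several and 1719 had none listed.

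The neqc function of limma 3.58.1 (R 4.3.3) was applied to the raw signals (negative controls inferred from detection p-values, offset 16, quantile, log2). The 11024 probes with a detection p under 0.01 on 4 or more arrays were fitted with lmFit and eBayes, two-sided; a call needed p under 0.05 after Benjamini-Hochberg adjustment over all of them. Genotype was fitted with no covariate, the letter with genotype, and the interaction with both. Exact permutation tests ran over 70 orders for genotype and 36 arrangements for the letter. The fit was also run on simulated data with independent normal noise for each probe. That setting does not mimic relations between genes or the behaviour of dim probes, and no result here rests on it. Python 3.11.15 with numpy 2.4.6, pandas 2.3.3, scipy 1.17.1 and matplotlib 3.10.9 was used.

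The members, lists and tests were chosen with earlier results of these data known. The text names every member, up to 4 tested genes of each pathway list in order of unadjusted p in each comparison, and the 5 genes most like Chek1. Of the cell type markers, it names some chosen after their values were seen. For a gene with several probes in a list the brightest tested probe was used.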

Additional observations from a re-analysis of the deposited data

How the results depend on the processing

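The count of member probes past the test stayed at 0 for genotype, letter and interaction under every alternative run: deposited lumi values, square root of GUI values, a normexp offset of 50, cyclic loess, median scaling, 3 other filters, array weights, the letter in the genotype model, and each tumour left out (which leaves 1 tumour in a cell of the interaction, assumed to vary like the others). Pairs of member genes past adjustment were also 0 with lumi values, cyclic loess, and genotype and letter taken out. Replicate numbers follow the order of the samples, not the numbers in the titles. Same-numbered tumours had correlations of deviations of -0.00374, -0.175, -0.214 and -0.186, and 0 of 8 correlated best with its own number. Every such pair held opposite letters, and only genotype means were taken out. A letter difference would therefore lower these correlations, so they cannot decide whether the numbers pair the tumours. With the replicate block the count was 0 for genotype and letter. Of 568 comparisons of single differences with the values reported, 537 kept their direction and side of the threshold and 31 reversed, 29 of them when a tumour was left out; no reversed value passed the test, and the cause was not tested. Tipin probe 1 differed between genotypes by -0.01 under median scaling, and Hus1 probe 3 between letters by 0.03 with array weights. Leaving out each tumour in turn, genotype differences ran from -0.14 to 0.04 for Clspn probe 3, -0.26 to 0.02 for Timeless probe 2, -0.07 to 0.22 for Tipin probe 1, -0.19 to 0.14 for Tipin probe 2 and -0.17 to 0.19 for Rad17 probe 1. Letter differences ran from -0.33 to 0.05 for Chek1 probe 1, -0.02 to 0.33 for Chek1 probe 2, -0.12 to 0.01 for Clspn probe 2, -0.09 to 0.08 for Timeless probe 1, -0.02 to 0.21 for Timeless probe 2, -0.15 to 0.08 for Hus1 probe 2 and -0.11 to 0.12 for Hus1 probe 3. The Tipin letter differences ran from 0.29 to 0.49 and from 0.41 to 0.70, the Chek1 probe 1 genotype difference from 0.30 to 0.57 and its interaction from 0.65 to 1.26. At low signal the processing set the size: the Chek1 probe 1 interaction was 0.53 with an offset of 50 and 1.70 on the square root of GUI values. Chek1, Tipin probe 2, Clspn probe 4 and Timeless probe 2 lie close to background, which limits what these arrays can show.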

Other observations

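The extreme values of the 15 tested probes were spread unevenly over tumours, given here as a description because probes of one gene are not independent. Wrn tumour 4 was lowest for 5 probes (Tipin probe 1, both Timeless probes, Rad17 probe 1 and Chek1 probe 2), and Eµ-Myc tumours 2 and 4 for 4 each. Wrn tumour 3 was highest for 6 probes and Wrn tumour 1 for 3. No tumour stood apart from the others of its genotype for any tested probe by Dixon's criterion, in 30 groups of 4.

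The genes whose signal was most like that of Chek1 probe 1 over the 8 tumours, of 7664 genes searched, were Rpl4 (Pearson r = 0.98), Qars (0.94), Ctps2 (0.94), Slc10a7 (0.93) and Rpl10 (0.93). Rpl4 and Rpl10 encode ribosomal proteins, Qars a glutaminyl-tRNA synthetase and Ctps2 a CTP synthase. Without the 2 tumours farthest from the Chek1 median, r was 0.97, 0.84, 0.88, 0.84 and 0.84 in that order. The highest of so many correlations over 8 points is high by selection, so they are given with no test.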
